A study of Mus musculus with 24 samples.

Results

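The miRNA content of extracellular vesicles (EVs) in mouse serum was compared between 6 mice bled 72 h after tibia surgery (S72h) and 6 control mice (Control), across all mature miRNAs with at least 10 CPM (counts of a miRNA per 1e+06 counts of its library) in 6 or more of these 12 libraries. This rule kept 254 of the 1966 mature miRNAs in the count table, and 556 had at least 1 count in the 12 libraries. The small RNA count table analysed here holds 24 such libraries, 1 per mouse, with 6 further mice each at 6 h (S6h) and 24 h (S24h) after surgery. All mice were wild type C57BL/6 males aged 14 to 16 weeks. Surgery was an open fracture of the left tibia, stabilized with a pin in the marrow canal, under isoflurane anaesthesia with the opioid buprenorphine. The S24h and S72h mice went on to receive analgesia every day, while the Control mice received saline and no operation. Per the study's methods, the Control mice are those assigned to the 6 h time point, and the mice assigned as controls to 24 and 72 h were not analysed here. The methods add that operated mice were put into the time points at random, and that the authors kept this control set alone because their own test had shown no difference between both sets. By the methods, controls of the same batch were given to each set to avoid variation over time. Surgery, anaesthesia, analgesia and any difference between the 6 h and later animal sets cannot be told apart in this comparison.

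EVs are membrane vesicles that cells release into body fluids, and serum holds vesicles from blood cells, vessel walls and solid organs side by side. A miRNA is cut from a hairpin precursor and guides the silencing of messenger RNAs, which it recognises mainly through its seed, bases 2 to 8. Some miRNAs are made almost solely in 1 tissue, such as miR-122 in liver and miR-1 in muscle, and serve as markers of the source of circulating RNA. The values are relative shares of miRNA reads, so that fewer vesicles carrying a miRNA and less of it per vesicle cannot be told apart.

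Total miRNA counts ranged from 63956 to 263211 in the Control libraries and from 65017 to 245013 in the S72h libraries, and did not pass a test of difference (exact two-sided permutation test on log2 totals, p = 0.652, n = 6 per group, smallest possible p = 0.0021645). For a miRNA with 0 counts the level could still be as high as 11.4 to 46.9 CPM, the worth of 3 counts in the library, a limit that covers counting error only. Of the 254 miRNAs, 131 reached 10 CPM in all 12 libraries and 54 had a median count under 5. At the limit of the rule, the 17 miRNAs with exactly 6 such libraries had mean levels of 18.5 to 65.9 CPM, and the 24 miRNAs with exactly 5, which were left out, had 10.6 to 128 CPM. miR-511-5p passed through 6 Control libraries and 0 S72h libraries, miR-183-5p through 5 and 1, and miR-27a-5p and miR-1983 through 1 and 5. Levels are given as CPM after TMM scaling in edgeR, and fold changes are log2 differences, S72h minus Control, from 1 edgeR quasi-likelihood model of all 24 libraries with Benjamini-Hochberg adjustment over the 254 miRNAs.

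At 72 h, 17 miRNAs passed both thresholds, an adjusted p under 0.05 and a change of 1.5-fold or more, and are referred to as called. They are 6.69% of those tested. Of these, 13 were higher (5.12%) and 4 were lower (1.57%). The higher ones were let-7b-5p, let-7c-5p, let-7e-5p, miR-26a-5p, miR-26b-5p, miR-103-3p, miR-145a-5p, miR-151-5p, miR-185-5p, miR-186-5p, miR-191-5p, miR-221-3p and miR-423-3p. The lower ones were miR-143-3p, miR-10b-5p, miR-434-3p and miR-511-5p, the last of which passed the filter through the Control libraries alone. The number and the split rested on the processing: 30 were called with DESeq2 (17 higher and 13 lower, 11.8%), 0 when only the 12 libraries entered the edgeR model (38 at an unadjusted p under 0.05), 3 with RLE scaling (1 higher and 2 lower) and 2 without scaling (both lower). Leaving out 1 mouse left 8, 1, 4, 6, 1 and 3 calls for Control replicates 1 to 6, and 11, 4, 2, 6, 4 and 11 for S72h replicates 1 to 6. In these 12 fits miR-143-3p stayed called in 12, let-7b-5p in 9, miR-423-3p in 7, miR-186-5p and miR-511-5p in 6, miR-145a-5p in 0 and each of the other 11 in 1 to 3. At an unadjusted p under 0.05, 46 miRNAs differed (18.1%).

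**Figure D1:**
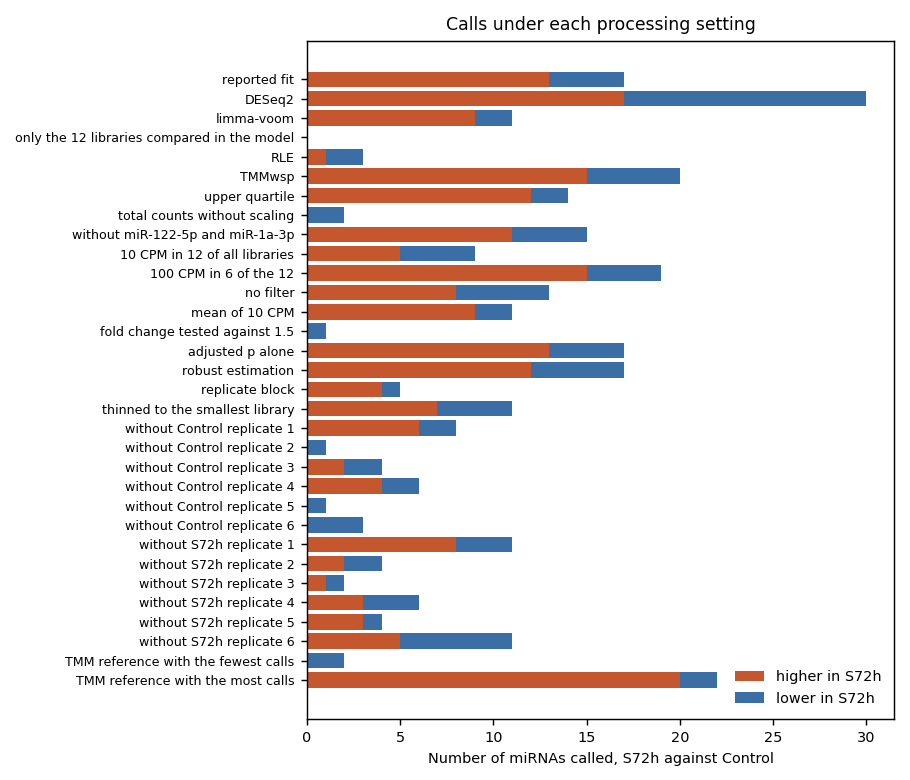
Number of miRNAs called in S72h against Control (horizontal axis) under each processing setting, stacked as higher (red) and lower (blue) in S72h. The count is 17 in the reported fit and ranges from 0 to 30.

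The mature sequences of called miRNAs are shown with their seed in capitals, since several of the 13 higher miRNAs share one. They are RefSeq sequences placed on GRCm38.p6, in which 220 of the 254 miRNAs and 12 of the 17 called ones were matched by name. miR-143-3p, miR-145a-5p, miR-151-5p, miR-185-5p and miR-511-5p are named only. All positions given are on GRCm38.
let-7b-5p: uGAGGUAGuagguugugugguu
let-7c-5p: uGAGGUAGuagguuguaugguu
let-7e-5p: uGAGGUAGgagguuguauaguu
miR-26a-5p: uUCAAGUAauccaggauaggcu
miR-26b-5p: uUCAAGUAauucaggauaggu
miR-103-3p: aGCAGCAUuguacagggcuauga
miR-186-5p: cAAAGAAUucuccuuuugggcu
miR-191-5p: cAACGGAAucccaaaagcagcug
miR-221-3p: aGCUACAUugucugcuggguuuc
miR-423-3p: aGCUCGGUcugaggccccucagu
miR-10b-5p: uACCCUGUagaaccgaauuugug
miR-434-3p: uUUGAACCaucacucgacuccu

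The let-7 family, which restrains growth genes such as Ras and Hmga2 in differentiated tissue, had higher levels in most S72h mice. All 9 tested members with the seed GAGGUAG, including miR-98-5p, had positive log2 fold changes, with a median of 0.88 beside 0.04 over all tested miRNAs. Of the 9, 3 were called (all higher), beside 6.69% of all tested miRNAs. Most of these members are abundant, and abundant miRNAs leaned the same way. The 26 miRNAs that averaged 10000 CPM or more, which include let-7 members, had a median of 0.40. Of those 26, 18 were positive and 5 were called higher. Without scaling between libraries, which moved the median of all tested miRNAs from 0.04 to -0.15, 8 of the 9 let-7 members were positive, with a median of 0.63. let-7b-5p ranged from 14169 to 25184 CPM (median 21206) in the Control mice and from 19367 to 68869.5 CPM (median 55284) in the S72h mice. In 5 of the 6 S72h mice it lay above the highest Control mouse, while S72h replicate 6 was among the Control values. Its log2 fold change was 1.26 ± 0.31 (SE), with an adjusted p of 0.0227. let-7c-5p ranged from 21164 to 33133 CPM (median 24952) in the Control mice and from 22580.2 to 72642 CPM (median 53484) in the S72h mice, again with 5 of 6 S72h mice above all Control mice (log2 fold change 1.03 ± 0.29 (SE), adjusted p = 0.0419). let-7e-5p, a less abundant member, ranged from 357 to 1848 CPM (median 1343) in the Control mice and from 1075 to 5455 CPM (median 3298) in the S72h mice. Its log2 fold change was 1.44 ± 0.43 (SE) at an adjusted p of 0.0468, and 4 of 6 S72h mice exceeded every Control mouse.

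The other let-7 members did not pass the adjusted threshold. let-7a-5p, the most abundant of the family, had a log2 fold change of 0.91 (95% interval 0.12 to 1.69, adjusted p = 0.193), let-7f-5p of 0.88, let-7d-5p of 0.73 and miR-98-5p of 0.83. let-7g-5p had 0.17 (95% interval -0.45 to 0.79) and let-7i-5p 0.21 (-0.34 to 0.77). These members are printed below for comparison, because they differ by few bases outside the seed.
let-7a-5p: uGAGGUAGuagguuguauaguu
let-7f-5p: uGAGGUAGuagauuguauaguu
let-7d-5p: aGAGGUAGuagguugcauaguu
miR-98-5p: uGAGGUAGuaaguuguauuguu
let-7g-5p: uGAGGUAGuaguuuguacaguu
let-7i-5p: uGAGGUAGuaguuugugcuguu

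Counted from the 5′ end and against let-7a-5p, let-7b-5p carries A17G and A19G, let-7c-5p A19G and let-7e-5p U9G. let-7g-5p and let-7i-5p, the members with the smallest fold changes, share G12U and U18C. Members that differ by 1 base can exchange reads if mismatches are allowed in the alignment, and how reads fitting several loci were treated is not given in the sources used here. Summed over the 9 members, let-7 reads ranged from 134811 to 198150 CPM (median 159534) in the Control mice and from 132671 to 463225 CPM (median 288899) in the S72h mice. let-7b-5p and let-7c-5p are encoded close together at chr15:85706603-85707403 (GRCm38), in exons of the noncoding transcript Lncppara, and both were called. let-7c-5p has another hairpin at chr16:77599657-77599750 in an intron of Mir99ahg, beside miR-99a, whose 5p arm had 0.40 and was not called. let-7e-5p (chr17:17830352-17830444 (+ strand)) lies in an intron of Spaca6 next to miR-125a, whose 5p arm had a log2 fold change of -0.67 (adjusted p = 0.216), opposite in sign to that of its neighbour.

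The miR-26 family has 2 tested members with the seed UCAAGUA, and both were called higher. The family acts on cell cycle genes together with the Ctdsp phosphatase genes that host it. miR-26a-5p ranged from 7654 to 16893 CPM (median 11566) in the Control mice and from 10424 to 50261 CPM (median 30142) in the S72h mice, and 4 of 6 S72h mice lay above all Control mice. Its log2 fold change was 1.24 ± 0.34 (SE) with an adjusted p of 0.0371. miR-26b-5p ranged from 2889 to 4842 CPM (median 3808) in the Control mice and from 4580.2 to 9257 CPM (median 6929.5) in the S72h mice, with 5 of 6 S72h mice above the Control mice (log2 fold change 0.84 ± 0.26 (SE), adjusted p = 0.0494). The 3 hairpins are spread over 3 chromosomes, in Ctdspl (chr9:119031796-119031885 (+ strand), intron), Ctdsp2 (chr10:126995530-126995613 (+ strand), annotated as exonic) and Ctdsp1 (chr1:74394310-74394394 (+ strand), intron).

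**Figure D2:**
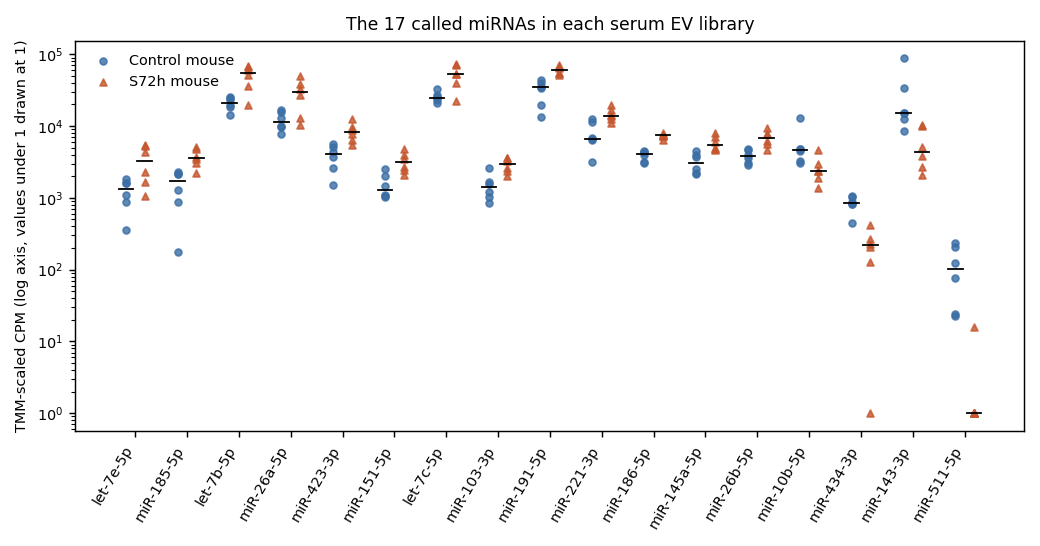
TMM-scaled CPM (log axis) of the 17 called miRNAs, ordered by fold change, in each of the 6 Control mice (circles) and 6 S72h mice (triangles), with the group median as a bar and values under 1 drawn at 1. With this scaling the groups do not overlap for miR-191-5p, miR-186-5p, miR-145a-5p, miR-434-3p and miR-511-5p; of these, only miR-511-5p stays without overlap under all of TMMwsp, RLE, upper quartile and no scaling.

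Of the single miRNAs that were higher, miR-186-5p had the smallest SE. It ranged from 3051 to 4558 CPM (median 4144) in the Control mice and from 6419.8 to 7893 CPM (median 7409) in the S72h mice, so that the groups did not overlap after TMM scaling. Without scaling they did, from 2935 to 5323 CPM in the Control mice and from 4493 CPM, in S72h replicate 4, to 8525 CPM in the S72h mice. The log2 fold change was 0.90 ± 0.22 (SE) with an adjusted p of 0.0227. miR-186 is encoded in an intron of Zranb2 (chr3:157544279-157544349 (+ strand)). miR-191-5p, one of the 10 most abundant miRNAs here, ranged from 13528 to 43341 CPM (median 34736) in the Control mice and from 50877 to 70460.5 CPM (median 59551) in the S72h mice without overlap (log2 fold change 0.96 ± 0.28 (SE), adjusted p = 0.0468). Unscaled, S72h replicate 4 held 31294 CPM of miR-191-5p, below the highest Control mouse at 46485 CPM. Its hairpin forms a pair with miR-425 at chr9:108568319-108568861 (GRCm38), and all 4 tested mature miRNAs of this pair had positive log2 fold changes (median 1.26), of which only miR-191-5p was called. miR-425-5p had 0.56 with a 95% interval of -0.01 to 1.13.

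miR-423-3p ranged from 1503 to 5563 CPM (median 4035) in the Control mice and from 5507 to 12398 CPM (median 8314) in the S72h mice, with 5 of 6 S72h mice above all Control mice (log2 fold change 1.15 ± 0.29 (SE), adjusted p = 0.0227). The other arm of its hairpin in Nsrp1, miR-423-5p, had 0.74 and an adjusted p of 0.0883. miR-185-5p ranged from 179 to 2306 CPM (median 1713) in the Control mice and from 2206 to 5081 CPM (median 3558) in the S72h mice (log2 fold change 1.32 ± 0.38 (SE), adjusted p = 0.0468). Here all 6 S72h mice were above the Control median and 5 above the highest Control mouse. miR-151-5p ranged from 1023 to 2512 CPM (median 1268) in the Control mice and from 2115 to 4818 CPM (median 3115) in the S72h mice, and its log2 fold change was 1.10 ± 0.32 (SE) (adjusted p = 0.0468). miR-103-3p, which regulates insulin signalling and is encoded in introns of Pank3 and Pank2, ranged from 834 to 2636 CPM (median 1398) in the Control mice and from 2035 to 3598 CPM (median 2955) in the S72h mice. Its log2 fold change was 0.97 ± 0.29 (SE) (adjusted p = 0.0494), while miR-107-3p, which differs from it by G22C, had -0.69 (95% interval -2.43 to 1.05).

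miR-221-3p, a miRNA of endothelial and smooth muscle cells that targets Kit and p27, ranged from 3144 to 12544 CPM (median 6686) in the Control mice and from 10944 to 19729 CPM (median 13964) in the S72h mice. All 6 S72h mice lay above the Control median and 4 above the highest Control mouse (log2 fold change 0.90 ± 0.28 (SE), adjusted p = 0.0494). miR-222-3p has the same seed and lies next to it on the X chromosome (chrX:19146294-19146971, GRCm38), yet its log2 fold change was -0.25 (95% interval -0.78 to 0.28, adjusted p = 0.685). A test of the difference between the members of such pairs was not run.

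miR-143-3p showed the smallest p of all. It belongs to a transcript shared with miR-145a that is known from vascular smooth muscle. It ranged from 8526 to 87494 CPM (median 15327) in the Control mice and from 2060 to 10437 CPM (median 4417) in the S72h mice. All 6 S72h mice were below the Control median and 4 were below the lowest Control mouse, while Control replicate 4 stood apart with 87494 CPM. The log2 fold change was -2.34 ± 0.49 (SE), a 5.08-fold lower level, with an adjusted p of 0.00874. Without Control replicate 4 it was -1.59 with an adjusted p of 0.0401, and the miRNA stayed past the threshold when any 1 of the 12 mice was left out. miR-145a-5p from the same transcript went the other way: it ranged from 2131 to 4488 CPM (median 3091) in the Control mice and from 4581 to 8042 CPM (median 5498) in the S72h mice without overlap (log2 fold change 0.90 ± 0.28 (SE), adjusted p = 0.0494). Without scaling the groups overlapped, with S72h replicate 4 at 2607 CPM, and the call was lost whichever mouse was left out. The other arm, miR-145a-3p, had -0.90 and an adjusted p of 0.451.

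miR-10b-5p, encoded within the Hoxd cluster (chr2:74726070-74726137 (+ strand), an intron of Hoxd3 and Hoxd4 transcripts), ranged from 3087 to 13032 CPM (median 4627) in the Control mice and from 1381 to 4603 CPM (median 2358) in the S72h mice. In 5 of 6 S72h mice it lay below the lowest Control mouse, and its log2 fold change was -1.11 ± 0.35 (SE) with an adjusted p of 0.0494. Control replicate 4 was again the highest, and without it the log2 fold change was -0.66 with an adjusted p of 0.287. miR-10a-5p differs from miR-10b-5p by 1 base (U12A, from miR-10a to miR-10b) and shares its seed ACCCUGU. It had a log2 fold change of -0.60 and an adjusted p of 0.24.

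miR-434-3p ranged from 447 to 1047 CPM (median 848) in the Control mice and from 0 to 416 CPM (median 219) in the S72h mice without overlap (log2 fold change -1.98 ± 0.62 (SE), adjusted p = 0.0494). It comes from the imprinted Dlk1-Dio3 region, where it lies opposite the exon of Rtl1 (chr12:109594506-109594599 (+ strand)). The region encodes a large set of maternally expressed miRNAs, of which 57 were listed, 13 passed the filter and 15 had 0 counts in all 12 libraries. All 13 had negative log2 fold changes, with a median of -1.28 beside 0.04 over all tested miRNAs. Of the 13, 1 was called, beside 6.69% of all tested miRNAs. miR-382-5p had -1.78 (adjusted p = 0.251), miR-379-5p -2.31 (adjusted p = 0.333) and miR-543-3p -2.15. The 13 lie in 3 groups on chromosome 12 that hold 6, 3 and 4 of them. Their summed level ranged from 1641 to 3719.8 CPM (median 2434) in the Control mice and from 203 to 1633 CPM (median 1044) in the S72h mice, with the highest S72h mouse just under the lowest Control mouse. Under TMMwsp the sums overlapped, as the highest S72h mouse (1802 CPM) lay above the lowest Control mouse (1742 CPM). Unscaled counts and other scalings did not turn the sign of miR-434-3p or miR-382-5p.

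miR-511-5p, encoded in the macrophage mannose receptor gene and used as a macrophage marker, was counted 76 times in the Control libraries and once in the S72h libraries. It ranged from 22.9 to 233 CPM (median 100.5) in the Control mice and from 0 to 15.9 CPM (median 0) in the S72h mice. The ratio of Control to S72h was 61.4, with a 95% exact interval of 10.7 to 2456 that covers counting error only and not the spread between mice. As it passed the filter through the Control libraries alone, this miRNA had to differ, and its call is a description.

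**Figure D3:**
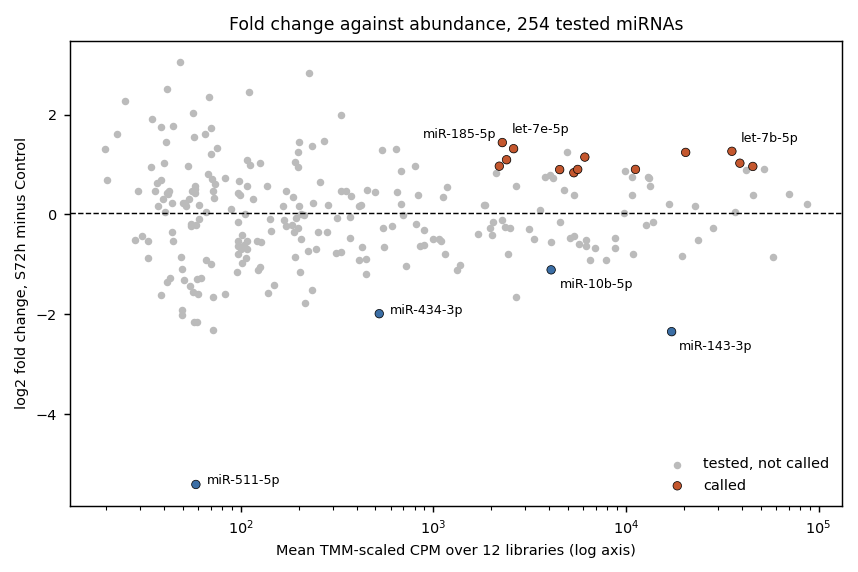
Log2 fold change (S72h minus Control) against the mean TMM-scaled CPM over the 12 libraries (log axis) for the 254 tested miRNAs; called miRNAs are red where higher and blue where lower, and the dashed line is the median of 0.04. All 13 higher calls lie above 1000 CPM, and the fitted value of miR-511-5p depends on the prior count because the S72h libraries held 1 count of it.

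Most calls lay among abundant miRNAs. Of the 26 miRNAs that averaged 10000 CPM or more, 5 were called higher and 1 lower, and of the 53 between 1000 and 10000 CPM, 8 were called higher and 1 lower. Between 100 and 1000 CPM 1 of 87 was called, and under 100 CPM 1 of 88, where the median SE of the log2 fold change was 1.30 against 0.32 in the most abundant class. This SE holds both counting error and the spread between mice, which were not separated. In the class of at least 10000 CPM, the median coefficient of variation over mice was 33.3% in the Control group and 44.9% in the S72h group, and 7 of the 26 miRNAs varied more in the Control group.

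Just outside the threshold lay miR-181c-5p (log2 fold change 1.99, adjusted p = 0.0515) and miR-16-5p (-0.92, adjusted p = 0.0515). miR-16-5p ranged from 7773 to 18313 CPM (median 8999.6) in the Control mice and from 3654 to 7414 CPM (median 5601) in the S72h mice without overlap. Over all tested miRNAs 6 did not overlap between the groups (2.36%), namely this one and the 5 called ones described above, of which miR-511-5p was set apart by the filter. Of these 6, 4 stayed without overlap under TMMwsp, 4 under RLE, 3 under upper quartile scaling and 3 without scaling. miR-434-3p overlapped under TMMwsp (S72h highest 459 CPM, Control lowest 448 CPM) and miR-16-5p under upper quartile scaling (S72h highest 8700 CPM, Control lowest 6533 CPM), so that of the 6 only miR-511-5p, which the filter set apart, stayed without overlap under all of them. The 4 members of the miR-181 family, which tunes lymphocyte signalling, had positive log2 fold changes with a median of 0.69, and 0 were called. miR-181a-5p had 0.73. With TMM scaling the summed miR-181 level ranged from 2678 to 5285 CPM in the Control mice and from 5627 to 9339 CPM in the S72h mice, without overlap. miR-320-3p (0.87, adjusted p = 0.059) and miR-484 (0.80, adjusted p = 0.112), both made without the usual Drosha step, also had positive values. miR-378a-3p, encoded in the metabolic regulator gene Ppargc1b, had 1.24 (adjusted p = 0.124). All 3 members of the miR-29 family, which targets collagen genes, had negative values with a median of -0.85, and 0 were called. The miR-15/16 seed family, which includes miR-16-5p, was split in sign, with 3 of 6 positive and a median of -0.07. Its summed level with TMM scaling ranged from 10278.5 to 20198 CPM in the Control mice and from 5212 to 9753 CPM in the S72h mice, without overlap. Overlap of the miR-181 and miR-15/16 sums under other scalings was not examined. Of the miR-30 family 1 of 5 was positive (median -0.28), of the miR-17-92 cluster 1 of 6 (median -0.32), and of the related miR-106b-25 cluster 0 of 3 (median -0.61), all without a call. The share called over all tested miRNAs was 6.69%, so that 0 calls in families this small are no result about them.

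Lists of miRNAs with a known source were set beside these results. Over all tested miRNAs 6.69% were called, and 0 or 1 call cannot set lists this small apart from that share. The counts of positive and negative values given for the red cell, epithelial, endothelial, Dlk1-Dio3, miR-26, miR-181, miR-378 and miR-29 lists were the same under TMM, TMMwsp, RLE and upper quartile scaling and without scaling. The red cell list had 9 tested members, of which 0 were called, and all 9 had negative log2 fold changes with a median of -0.77. miR-486a-5p had -0.84 (adjusted p = 0.194) and miR-25-3p -0.80 (adjusted p = 0.193), while miR-451a, the most specific red cell marker, had -0.27 with a 95% interval of -1.06 to 0.52. S72h replicate 6 held 64630 CPM of miR-451a against 8367 to 28352 CPM in the other S72h mice, and without it the log2 fold change was -0.94 (adjusted p = 0.138). Without that mouse all 9 values stayed negative and 1 of the 9, miR-16-5p, was called (-1.10, adjusted p = 0.0394). With any other mouse left out all 9 were negative as well, but 0 were called, and miR-451a had between -0.44 and -0.09. The summed level of the list ranged from 147654 to 239582 CPM (median 159117) in the Control mice and from 73030.5 to 165388 CPM (median 98928) in the S72h mice. Red cell miRNAs thus held a large share of the reads in both groups, and their part in the other results was not tested.

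For the epithelial list, all 7 tested members had negative values, with a median of -1.11, and 0 were called. miR-203-3p, a skin miRNA, had -1.12 (adjusted p = 0.216) and miR-205-5p -0.78 (adjusted p = 0.24). Their sum ranged from 3256 to 6118 CPM (median 4248) in the Control mice and from 1208 to 3046 CPM (median 2318) in the S72h mice, with every S72h mouse under the lowest Control mouse. The endothelial list went from 9404 to 18798 CPM in the Control mice and from 18839 to 27231 CPM in the S72h mice, where the lowest was just above the highest Control mouse. Without scaling the endothelial sums overlapped (9424 to 21953 CPM in the Control mice and 15498 to 23502 CPM in the S72h mice), as they did with RLE and upper quartile scaling. The epithelial sums stayed apart under TMM, TMMwsp, RLE and upper quartile scaling and without scaling. Of the 4 tested members of the endothelial list 3 had positive values and 1, miR-221-3p, was called. miR-126a-3p, made in endothelium and platelets, had 0.75 (adjusted p = 0.216).

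The platelet list had 9 tested members with a median of 0.35, 5 positive and 4 negative, and miR-185-5p was its 1 call. The leukocyte list had 10, with a median of -0.19 and 1 call, miR-511-5p, which had to differ because of the filter. Its sum ranged from 12364 to 20336 CPM (median 16866) in the Control mice and from 12633 to 20633 CPM (median 16588) in the S72h mice. Of 7 tested miRNAs known to respond to inflammation 0 were called, beside 6.69% of all tested miRNAs. miR-21a-5p, which is induced in many injured tissues, had 0.42 (95% interval -0.34 to 1.17), miR-155-5p 1.04 (-1.21 to 3.29) and miR-146a-5p -0.78 (-1.47 to -0.10). Of 18 listed brain miRNAs 5 were tested and 0 called, and 6 were at 0 counts in all 12 libraries; miR-9-5p had -1.41 and miR-128-3p, which is not limited to brain, 0.40. miR-140-3p, a cartilage miRNA, had 0.75 (adjusted p = 0.126), and 0 of 5 tested cartilage and bone miRNAs were called.

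**Figure D4:**
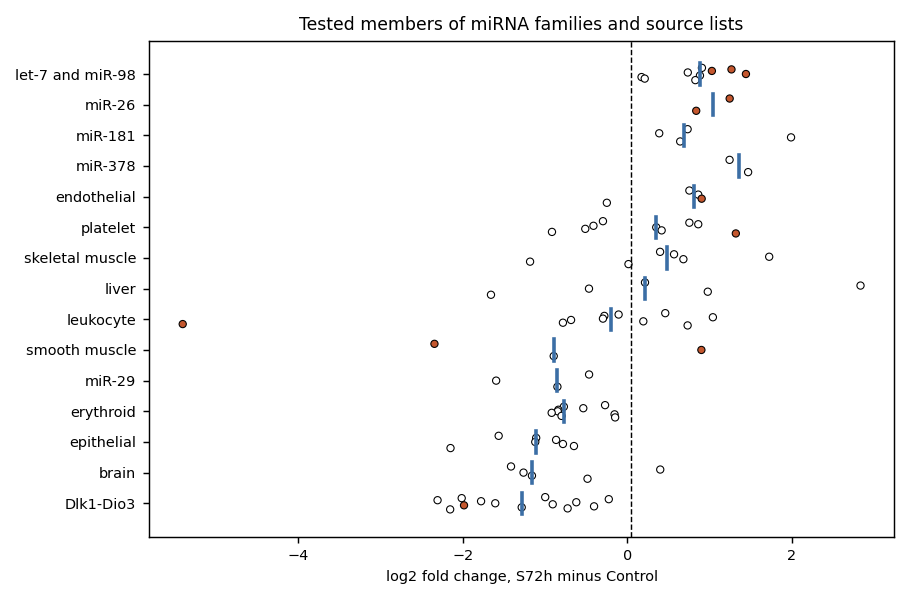
Log2 fold change (S72h minus Control) of each tested member of 15 miRNA families and source lists (points, filled where called), with the list median as a vertical bar and the median of all 254 miRNAs as a dashed line. With TMM scaling all points of the let-7 (8 of 9 without scaling), miR-26, miR-181 and miR-378 families lie to the right of 0, and all points of the miR-29, red cell (erythroid), epithelial and Dlk1-Dio3 lists to the left.

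In the S72h group 1 mouse stood far above the others for miR-122-5p, the main miRNA of liver, and another for miR-1a-3p. miR-122-5p made up 29.8% of all counts in S72h replicate 4, at 524312 CPM, against 4747 to 11239 CPM in the other S72h mice. The Control mice fell into a low set of 3012 to 8542 CPM (replicates 2, 3 and 5) and a high set of 137248 to 170991 CPM (replicates 1, 4 and 6). Its log2 fold change was 0.21 with a 95% interval of -1.77 to 2.19, and -3.38 with an adjusted p of 0.0237 without S72h replicate 4. In that replicate miR-194-5p, a miRNA of liver and gut, stood at 5357 CPM against 88.9 to 420.4 CPM in the other S72h mice. The TMM factor of this library was 0.569, against 0.872 to 1.24 in the other S72h libraries. miR-1a-3p, the main miRNA of heart and skeletal muscle, made up 19.0% of counts in S72h replicate 1, at 217733 CPM, against 4227 to 51973 CPM in the other S72h mice and 25021 to 59480 CPM in the Control mice. Its log2 fold change was 0.40 (adjusted p = 0.814), and -1.07 (adjusted p = 0.258) without that mouse. Not all members of these lists followed: in the S72h group the muscle miRNA miR-206-3p was highest in replicate 4 (697 CPM against 276 CPM in replicate 1), and miR-215-5p of the liver list in replicate 6 (2480 CPM against 2219 CPM in replicate 4). Of 6 tested muscle miRNAs and 5 tested liver miRNAs 0 were called, beside 6.69% of all tested miRNAs.

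**Figure D5:**
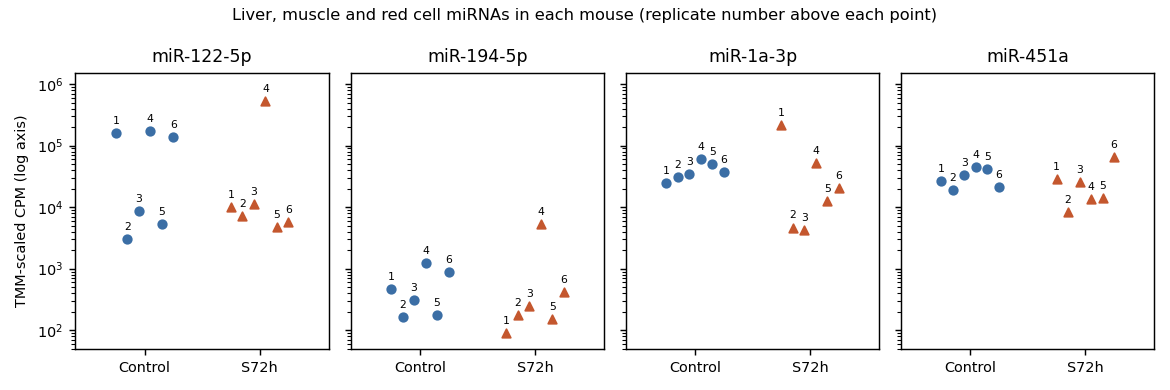
TMM-scaled CPM (log axis) of the liver miRNAs miR-122-5p and miR-194-5p, the muscle miRNA miR-1a-3p and the red cell miRNA miR-451a in each Control (circles) and S72h (triangles) mouse, with the replicate number above each point. S72h replicate 4 stands at 524312 CPM for miR-122-5p and S72h replicate 1 at 217733 CPM for miR-1a-3p.

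Within a hairpin, the ratio of the 5p to the 3p arm needs no scaling between libraries. Among 54 hairpins with both arms tested, 0 differed after adjustment, where a single hairpin at the smallest possible p could not pass, and 6 had an exact two-sided permutation p under 0.05 (11.1%). The smallest p was that of miR-151, whose log2 ratio of 5p to 3p counts was 0.63 ± 0.59 in the Control mice and 2.0 ± 0.50 in the S72h mice (SD, n = 6 per group, exact p = 0.0021645, the smallest possible, adjusted p = 0.117). Every S72h value, from 1.25 to 2.68, exceeded every Control value, from -0.29 to 1.21. For miR-423 the ratio was 1.42 ± 0.32 in the Control mice and 0.96 ± 0.18 in the S72h mice (exact permutation p = 0.00649, adjusted p = 0.175). With both arms required to reach 100 CPM in 6 libraries, 20 hairpins remained and 1 had an adjusted p under 0.05 (0.0433).

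The rule did not use sequence. Across the 220 miRNAs with a sequence, GC content and log2 fold change had a Spearman correlation of 0.13, and of -0.04 over the 63 of at least 1000 CPM. These miRNAs share libraries and are not independent. Called higher miRNAs had a median GC content of 43.2% (n = 10) beside 47.6% over all matched ones. Of 129 tested miRNAs named for the 5p arm 10 were called higher and 2 lower, and of 119 named for the 3p arm 3 were called higher and 2 lower.

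The S72h mice were also set directly against the other surgery groups, which had the same operation. Against S24h, 1 miRNA was called (0.394%), while 28 (11%) passed at an unadjusted p under 0.05. None of the 17 miRNAs called against Control was called between S72h and S24h. For let-7b-5p the log2 difference, S72h minus S24h, was 0.02, for miR-423-3p -0.23 and for miR-143-3p 0.75. The filter used the Control and S72h libraries only, so that a miRNA absent at 24 h could pass it more easily than 1 absent at 72 h. The 1 call was miR-541-5p of the Dlk1-Dio3 region, which had 0 counts in every S24h library and ranged from 0 to 313 CPM (median 163) in the S72h mice. Its mean was at least 4.91-fold higher in the S72h mice, with each S24h library taken at 3 counts. In the Control mice it ranged from 0 to 518 CPM (median 309), and its log2 fold change at 72 h against Control was -0.73 (95% interval -2.48 to 1.03).

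Against S6h, 26 miRNAs were called (10.2%), 12 higher (4.72%) and 14 lower (5.51%) at 72 h, and 57 passed at an unadjusted p under 0.05 (22.4%). They include 11 of the 17 called against Control, which is 64.7% of those and 42.3% of the 26. However, both comparisons use the same S72h mice, and by the methods the Control mice were those assigned to the 6 h time point. Time since surgery, animal set and daily analgesia cannot be told apart in the comparison with S6h. The log2 difference, S72h minus S6h, was -2.78 for miR-143-3p (adjusted p = 0.000854), -2.54 for miR-434-3p (adjusted p = 0.00704) and -1.64 for miR-10b-5p (adjusted p = 0.00443). It was 1.28 for miR-423-3p, 1.30 for miR-320-3p and 1.37 for miR-484, each with an adjusted p of 0.00443. let-7b-5p had 1.05 (adjusted p = 0.0194), while miR-26a-5p had 0.82 and did not pass (adjusted p = 0.116). miR-16-5p, just outside the threshold against Control, had -1.25 (adjusted p = 0.00561). The count stayed within 18 to 36 under all alternatives tried, leaving out each mouse included.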

How the data were processed

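The deposited table holds raw counts per mature miRNA. Per the study's methods, the authors removed adapter sequence (cutadapt), mapped the reads to mouse genome GRCm38 (Bowtie), kept those as long as a mature miRNA and obtained counts from featureCounts and the miRBase annotation. Each of the 24 libraries was matched to its group by its label, and all columns were used. The software was edgeR 4.0.16, DESeq2 1.42.0 and limma 3.58.1 under R 4.3.3, beside Python 3.11.15. The main test was edgeR's quasi-likelihood test with TMM scaling in 1 model of all groups; the study used DESeq2, which is an alternative here. Mature sequences and hairpin positions are from RefSeq (GRCm38.p6), and host genes from a Gencode annotation of the same build. Arm ratios were taken on counts plus 0.5 and tested over all 924 assignments of the 12 libraries. The miRNAs and lists were chosen with earlier results of these data known. Named miRNAs are those called, the 12 with the smallest p in each direction, the 10 most abundant, list members, those without overlap and the top hairpins. Family members printed for comparison (let-7 members, miR-222-3p, miR-425-5p) and miR-541-5p were added after their values were seen. The scripts were tested on simulated data. No 2 libraries were identical. Each library is 1 mouse, so p-values measure the spread between mice.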

Additional observations from a re-analysis of the deposited data

Results flagged for a closer look

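Of 154 groups of values examined, 23 held 1 mouse far from the other 5 of its group. A rate of 1 in 20 would give about 7.7, but that rate holds for normally distributed values. CPM values are skewed, the groups share libraries, and list sums hold members that were also examined. Whether 23 exceeds chance was therefore not tested. Given in parentheses is the distance of the far mouse from the next one, divided by the range of all 6. S72h replicate 4 was the highest for miR-122-5p (0.988), miR-122-3p (0.993), the summed liver list (0.975), miR-206-3p (0.692), miR-30a-5p (0.723) and miR-511-5p (1, from a single count). S72h replicate 1 was the highest for miR-1a-3p (0.776), miR-133a-5p (0.776), the summed muscle list (0.795) and miR-382-5p (0.643).

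Control replicate 4 was the highest for miR-143-3p (0.678), miR-10b-5p (0.823), miR-10a-5p (0.635), miR-16-5p (0.806), miR-22-3p (0.666), miR-30e-5p (0.634) and the summed smooth muscle list (0.64), and the lowest for miR-128-3p (0.776) and the summed brain list (0.825). Control replicate 1 was the highest for miR-486a-5p (0.781), miR-486b-5p (0.841) and the total count (0.647), and Control replicate 6 for miR-195a-5p (0.63).

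The 72 h level differed from that of another time point, in a direct test between the surgery groups, for miR-541-5p against S24h (log2 difference 7.55, adjusted p = 0.0026) and for 26 miRNAs against S6h. The 5 with the smallest p of the latter were miR-143-3p (-2.78), miR-10b-5p (-1.64), miR-484 (1.37), miR-320-3p (1.30) and miR-423-3p (1.28). The fitted value of miR-541-5p depends on the prior count, since all S24h libraries are at 0, and the filter did not use those libraries. Against S6h, time cannot be told apart from animal set and daily analgesia.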

How the results depend on the processing

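The number of calls in S72h against Control (17) stayed within 1.5 times in 8 of 19 alternatives: 20 with TMMwsp, 14 with upper quartile scaling, 15 when miR-1a-3p and miR-122-5p were dropped, 19 with 100 CPM in 6 libraries, 13 without a filter, 17 with the adjusted p alone, 17 with robust estimation and 22 with 1 TMM reference. It was 30 with DESeq2, 11 with limma-voom, 0 with only the 12 libraries, 3 with RLE, 2 without scaling, 9 with 10 CPM in 12 of all libraries, 11 with a mean of 10 CPM, 1 with the fold change tested against 1.5 and 11 after thinning to the smallest library. With each library as TMM reference in turn, chosen after seeing the data, it ranged from 2 (0 higher) to 22 (20 higher), and the median log2 fold change from -0.14 to 0.20. Leaving out 1 mouse gave 1 to 11 calls. miR-143-3p passed the threshold in 18 of 19 alternatives and with each of the 12 mice left out, let-7b-5p in 15 and 9, miR-423-3p in 14 and 7, miR-186-5p in 13 and 6, miR-511-5p in 14 (of 18) and 6, miR-145a-5p in 5 and 0, and each of the other 11 in 6 to 13 and 1 to 3. All 17 kept their sign throughout. S72h against S24h gave 4 calls with DESeq2, 0 with only the 12 libraries (24 at an unadjusted p under 0.05) and 1 to 5 with a mouse left out. S72h against S6h gave 18 to 35 with a mouse left out. Values without overlap fell from 6 to 3 without scaling. Of the 6 under TMM, 4 kept it under TMMwsp, 4 under RLE, 3 under upper quartile scaling and 3 without scaling; which ones, and the list sums, were examined after seeing the data. Arm ratios gave 1 call with both arms at 100 CPM; with a mouse left out a lone hairpin could not pass.

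The replicate numbers did not pair the libraries: correlations of same-numbered deviations were 0.08, 0.06, -0.04, 0.16, -0.05 and -0.03, and 2 of 6 Control libraries correlated best with their own number. With the replicate block 5 miRNAs were called against Control, 1 against S24h and 30 against S6h, and the sign turned for miR-122-5p (-1.08), miR-122-3p (-0.85) and miR-1a-3p (-0.49).

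The sign also turned for miR-122-5p with DESeq2 (-0.0042), limma-voom (-1.06), only the 12 libraries (-0.14), RLE (-0.0045), upper quartile scaling (-0.13) and no scaling (-0.45), and ranged from -3.38 to 0.58 with 1 mouse left out. It turned for miR-122-3p with limma-voom (-0.44) and without S72h replicate 4 (range with 1 mouse left out -3.18 to 3.52), and for miR-1a-3p with limma-voom (-0.84) and without S72h replicate 1 (range -1.07 to 0.64). miR-23a-3p, near 0, turned with DESeq2 (-0.035), RLE (-0.036), no scaling (-0.066), 10 CPM in 12 of all libraries (-0.020), thinning (-0.013), the TMM reference with the fewest calls (-0.037) and with 1 mouse left out (-0.17 to 0.19). Of 322 values of the 17 called miRNAs under alternatives, 181 stayed past the threshold and 141 lost it, and of 204 values with 1 mouse left out 55 stayed and 149 lost it. Uncalled named miRNAs passed it with their sign unchanged in 32 values under alternatives and in 4 with a mouse left out. With its sign turned, miR-122-5p also passed it in the edgeR fit without S72h replicate 4 (-3.38, adjusted p = 0.0237). The cause of these moves was not tested. In the smallest library 0 counts allow up to 46.9 CPM.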
